A study of Mus musculus with 12 samples.

Results

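The dose series of hypochlorous acid (HOCl) in J774A.1 cells comprised 9 of the 12 messenger RNA libraries of the study, 3 at each of 3 doses, read as a single ordered series. J774A.1 is a mouse macrophage-like line. The cells were given HBSS, a balanced salt solution, with HOCl at 0, 20 or 100 µM for 1 h, and then returned to full medium for 24 h before RNA was taken with TRIzol. The 0 µM group is called HBSS here. It carries the same change of medium, salt solution and return to medium as both HOCl groups, so the 3 groups differ by dose alone as far as the labels say. Another group of 3 libraries was kept in cell media, is no dose, and was left out of the series. Values are FPKM (fragments scaled to gene length and to the reads of the library) as deposited. Of 28977 gene IDs, 11850 reached 1 FPKM in at least 3 of the 9 libraries and were followed. The threshold fell at Pirb, whose third-highest value was 1.0001 FPKM, and at Nfix, left out at 0.9990 FPKM. Within 0.05 FPKM of it lay 129 genes inside and 146 outside.

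Hypochlorous acid is the oxidant that myeloperoxidase of neutrophils and monocytes makes from hydrogen peroxide and chloride, and it reacts fastest with the sulphur of cysteine and methionine. Cells answer thiol oxidants by releasing the transcription factor NRF2 from its inhibitor KEAP1, which raises antioxidant and glutathione enzymes. A second stress route, the integrated stress response, phosphorylates the initiation factor eIF2 and raises the factors ATF4 and CHOP, which drive amino acid uptake and synthesis and, when prolonged, cell death. Mitochondria damaged by oxidants can be removed by mitophagy, their degradation by autophagy, which the title of the series names. A macrophage line also has a standing programme of phagocytic receptors, proteases and interferon-driven antiviral genes on which such stress acts.

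The line carried its macrophage markers. All 10 markers (Adgre1, Csf1r, Cd68, Itgam, Lyz2, Fcgr1, Spi1, Tyrobp, Laptm5 and Ptprc) passed the filter, and their summed level ran from 3644 to 3995 FPKM in HBSS, 3763 to 3985 at 20 µM and 4172 to 4730 at 100 µM. Lyz2 was the largest part of that sum, at 2020 to 2294 FPKM in HBSS, 2202 to 2293 at 20 µM and 2515 to 2892 at 100 µM. Of the 10 markers, 7 had a slope on dose above 0 and 3 below, and only Lyz2 was called in the slope test below. No marker of fibroblasts, B cells, epithelium, endothelium or mast cells reached the filter, and Mpo, the gene of myeloperoxidase itself, stayed between 0 and 0.0294 FPKM. Of the T cell markers only Lck passed, and of the neutrophil markers only S100a8, which macrophages can also make. S100a8 rose with dose, at 9.83, 11.7 and 12.7 FPKM in HBSS, 10.97, 10.7 and 12.01 at 20 µM and 13.9, 16.4 and 16.3 at 100 µM (slope 0.45 ± 0.091, adjusted p = 0.0413), beside the higher level of Lyz2 at 100 µM, while S100a9 was at 0 in 8 of the 9 libraries. The part of other cells in the results was not tested. The recovered read totals were 19880707 to 21408710 in HBSS, 19549866 to 21343567 at 20 µM and 17736642 to 18812050 at 100 µM, so each 100 µM library was shallower than each other library of the series. The first principal component held 45.2% of the variance. HBSS replicates 1, 2 and 3 scored −17.2, −3.37 and −7.92 on it, the 20 µM replicates −14.3, −5.83 and 6.96, and the 100 µM replicates 1.64, 15.7 and 24.2. The order by dose was not complete, since 20 µM replicate 3 lay beyond 100 µM replicate 1. Long genes stood lower relative to short genes at 100 µM: the mean centred log2 level of the 2932 genes with the longest exons (at least 6254.5 bases in all) minus that of the 2933 with the shortest (up to 1997 bases) was 0.106, 0.0331 and 0.128 in HBSS, 0.118, 0.0401 and −0.0551 at 20 µM, and −0.0428, −0.142 and −0.186 at 100 µM. Read depth and exon length thus moved with dose in these libraries, and their part in the results below was not tested beyond the alternative fits given beside them. In bulk RNA, fewer cells of one state and less RNA per cell cannot be told apart.

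**Figure D1:**
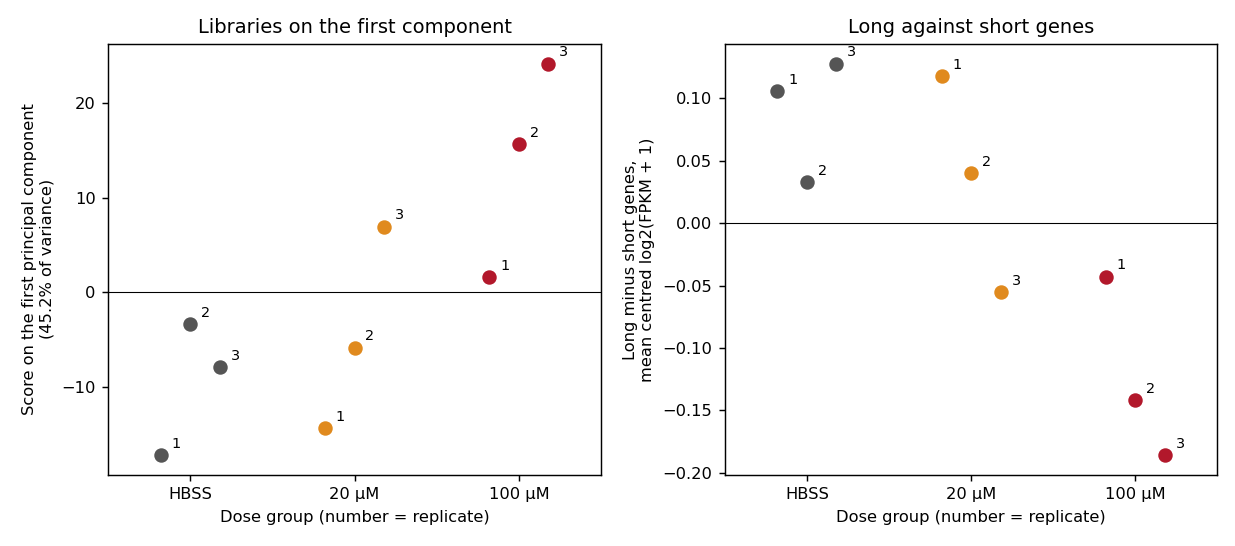
Left, the score of each of the 9 libraries on the first principal component of log2(FPKM + 1); right, the mean centred log2(FPKM + 1) of the 2932 longest genes minus that of the 2933 shortest. Points are single libraries, numbered by replicate and placed by dose group; 20 µM replicate 3 lies among the 100 µM libraries in both plots.

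Most of the movement in the series lay between 20 and 100 µM. Genes were sorted by whether the 3 libraries of a dose lay wholly apart from those of the other doses, which is a description with no test. The 100 µM libraries stood apart from all 6 others, on either side, in 2165 genes (18.3%), the HBSS libraries in 433 (3.65%) and the 20 µM libraries in 185 (1.56%). A 100 µM only shape, in which HBSS and 20 µM overlapped and every 100 µM library lay above both, was found in 933 genes (7.87%), and the mirrored shape in 1065 (8.99%). A monotone upward shape, with every HBSS library below every 20 µM library and every 20 µM library below every 100 µM library, was found in 53 genes (0.447%), and a monotone downward one in 81 (0.684%). A 20 µM peak, above all 6 other libraries, was found in 110 genes (0.928%) and a 20 µM dip in 75 (0.633%). In the remaining shape both doses lay apart from HBSS while overlapping each other, above it in 169 genes (1.43%) and below it in 128 (1.08%). The other 9236 genes (77.9%) had no shape. Complete separation also arises among libraries that do not differ by dose. It does so more readily where a single dose group stands apart, as in every shape but the monotone ones. The monotone shapes ask for all 3 groups in order. How many genes would take each shape that way was not tested. Differences were small: the median distance of 100 µM from HBSS was 0.19 on the log2(FPKM + 1) scale in the 100 µM only genes above the rest and 0.22 in those below. It was 0.22 in monotone upward and 0.31 in monotone downward genes.

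**Figure D2:**
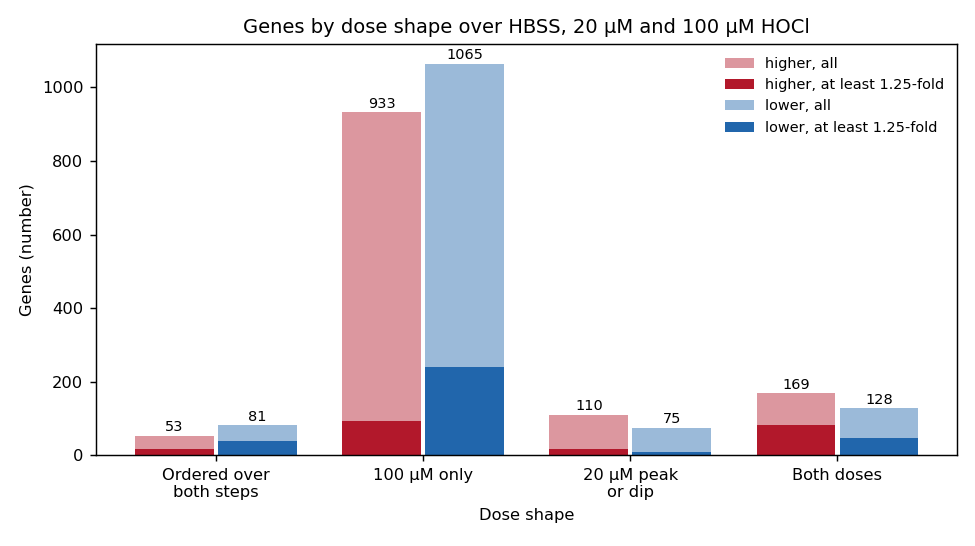
Number of genes (vertical axis) in each dose shape, with red bars for shapes above and blue bars for shapes below the other doses; the dark part of a bar counts the genes past the fold named in the legend. The 100 µM only bars, 933 and 1065 genes, exceed the others.

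A slope on dose was fitted to each gene with limma, as the change in log2(FPKM + 1) per 100 µM along the line through the dose group means. At an adjusted p under 0.05 over all 11850 genes, the slope was called in 797 genes: 345 rose with dose (2.91%) and 452 fell (3.81%). All adjusted p-values of these calls lay between 0.0366 and 0.05, so the calls sit close to the threshold, and the size of a call was modest, with a median slope of 0.29 in either direction and 0.171 to 0.667 from the 5th to the 95th percentile. The call count rests on single libraries. It was 0 without HBSS replicate 1, HBSS replicate 2, 20 µM replicate 1, 100 µM replicate 2 or 100 µM replicate 3, 1 without HBSS replicate 3, 2 without 20 µM replicate 2, 1526 without 20 µM replicate 3 and 3297 without 100 µM replicate 1. It was 1 with each library's trend on exon length removed and 0 with the cell media libraries in the fit. All 797 slopes kept their sign in every fit that left a library out, as did 789 of 792 with the length trend removed. These genes were chosen for their slope in the same libraries, so their signs could hardly change and give the calls no further support. Replicates are not stated to be separate cultures, so the p-values speak of the variation among these 9 libraries, which may be technical.

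The level at 20 µM was also tested against the straight line from HBSS to 100 µM. No gene departed from it (0%) in the limma fit, with a smallest adjusted p of 0.81 and 283 genes at an unadjusted p under 0.05. The test for any difference among the 3 doses also called no gene (0%), with 3045 at an unadjusted p under 0.05. The 110 peaks and 75 dips are therefore described by their values alone. The 100 µM only shape was likewise not told apart from a straight line on dose by this test. Among the 797 called genes the 20 µM mean lay a median of 0.145 of the way from HBSS to 100 µM, with quartiles of 0.02 and 0.272, where a straight line on dose gives 0.2. The fraction was under 0.2 in 62.1% of them.

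**Figure D3:**
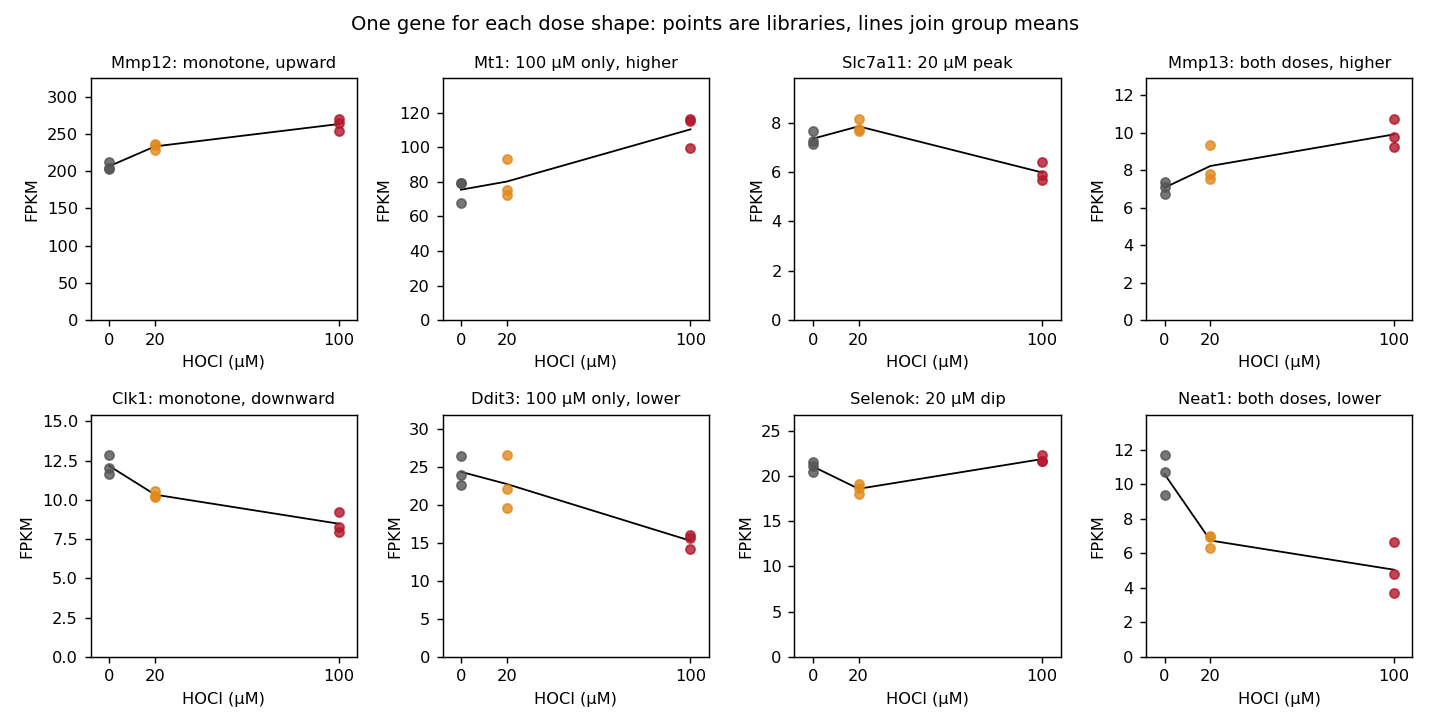
FPKM (vertical axes, from 0) against HOCl dose in µM for 1 gene of each shape; points are the 3 libraries of a dose and lines join the group means. Mmp12 and Clk1 step at both doses, and Mt1 and Ddit3 stand apart at 100 µM while HBSS and 20 µM overlap. Slc7a11 is highest and Selenok lowest at 20 µM, and Mmp13 and Neat1 are already shifted at 20 µM.

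Ranking within each shape was limited to genes averaging 5 FPKM or more over the series. The monotone upward genes with the largest change were mostly processed pseudogenes. Gm6278, Gm5805, Gm13509, Gm7887 and Gm3788, all 5 of this kind, took 5 of the first 6 places. Their reads can come from the parent genes they copy, so their values are uncertain. Gm5805 stood at 21.3, 21.6 and 20.1 FPKM in HBSS, 23.8, 23.4 and 26.4 at 20 µM and 29.3, 27.6 and 33.3 at 100 µM. The protein-coding gene among the 6 was Hist1h1c, a linker histone, at 32.5, 29.8 and 28.7 FPKM in HBSS, 35.5, 33.2 and 33.4 at 20 µM and 43.9, 40.9 and 40.3 at 100 µM (slope 0.42 ± 0.054, adjusted p = 0.0366). Each dose lay above the last without overlap. Hlx, a homeobox transcription factor, stood at 8.04, 8.46 and 8.51 FPKM in HBSS, 9.002, 9.05 and 9.09 at 20 µM and 10.8, 10.9 and 11.1 at 100 µM. Its 20 µM libraries were nearly equal and lay between the other doses (slope 0.34 ± 0.036, adjusted p = 0.0366). Mmp12, macrophage elastase, stood at 213, 205 and 202 FPKM in HBSS, 237, 235 and 228 at 20 µM and 265, 271 and 255 at 100 µM. It rose by a slope of 0.31 ± 0.038 (SE), adjusted p = 0.0366, and by 0.39 with the exon length trend removed. Sertad1, a regulator of CDK4 and E2F transcription, gave 5.53, 5.54 and 6.06 FPKM in HBSS, 7.30, 6.90 and 7.23 at 20 µM and 7.83, 7.68 and 8.61 at 100 µM (slope 0.36 ± 0.052, adjusted p = 0.0366), with most of its step at 20 µM. Gadd45g, a growth arrest and stress sensor, was expressed at low level, with 2.75, 2.53 and 2.10 FPKM in HBSS, 2.96, 3.83 and 3.97 at 20 µM and 5.39, 5.38 and 4.41 at 100 µM (slope 0.72 ± 0.11, adjusted p = 0.0366). Plaur, the urokinase receptor that localises plasminogen activation to the cell surface, gave 52.1, 56.3 and 57.6 FPKM in HBSS, 59.4, 62.2 and 64.2 at 20 µM and 64.2, 68.4 and 68.1 at 100 µM (slope 0.23 ± 0.049, adjusted p = 0.0413), with the highest 20 µM and the lowest 100 µM library almost equal. Txn2, the thioredoxin of mitochondria, gave 27.2, 28.6 and 28.4 FPKM in HBSS, 30.1, 29.8 and 30.3 at 20 µM and 30.8, 33.4 and 35.3 at 100 µM (slope 0.21 ± 0.048, adjusted p = 0.0443).

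The leading monotone downward genes included a splicing protein and a splicing kinase. Rsrp1, an arginine and serine rich protein of the splicing machinery, went through 81.6, 76.3 and 82.8 FPKM in HBSS, 73.2, 68.6 and 60.7 at 20 µM and 59.3, 46.2 and 33.9 at 100 µM. The 3 ranges do not touch, and the 100 µM libraries spread widest (slope −0.78 ± 0.16, adjusted p = 0.0413). Clk1, the dual-specificity kinase that phosphorylates SR splicing factors, stood at 11.6, 12.8 and 12.03 FPKM in HBSS, 10.2, 10.3 and 10.6 at 20 µM and 9.23, 8.27 and 7.95 at 100 µM (slope −0.43 ± 0.055, adjusted p = 0.0366). Prpf38b, a spliceosome factor, gave 23.2, 22.1 and 23.5 FPKM in HBSS, 20.7, 20.4 and 19.8 at 20 µM and 19.1, 17.2 and 13.8 at 100 µM and Rbm5, a splicing regulator of apoptosis genes, gave 7.94, 7.74 and 8.02 FPKM in HBSS, 7.15, 7.36 and 6.62 at 20 µM and 6.60, 5.93 and 5.71 at 100 µM. Both fell, with slopes of −0.42 ± 0.091 (SE) and −0.30 ± 0.055 (SE). The other leading members were 0610030E20Rik, Ttc14 and Dido1, a chromatin reader, which fell by slopes of −0.56 ± 0.11 (SE), −0.48 ± 0.10 (SE) and −0.45 ± 0.079 (SE). Gm10222, an unprocessed pseudogene at 90.4, 63.1 and 69.9 FPKM in HBSS, 58.8, 61.0 and 58.8 at 20 µM and 57.9, 43.0 and 54.8 at 100 µM, was ordered the same way but its slope did not pass (adjusted p = 0.0629). H2-T23, the non-classical MHC molecule Qa-1, gave 8.18, 7.61 and 7.98 FPKM in HBSS, 6.98, 7.25 and 7.52 at 20 µM and 5.19, 5.95 and 5.89 at 100 µM (slope −0.41 ± 0.054, adjusted p = 0.0366). Itga9, the integrin alpha 9 chain, gave 7.88, 7.36 and 7.49 FPKM in HBSS, 6.97, 6.73 and 6.62 at 20 µM and 5.96, 5.42 and 5.86 at 100 µM (slope −0.32 ± 0.046, adjusted p = 0.0366). Cdkn1b, the CDK inhibitor p27, gave 13.2, 14.8 and 15.0 FPKM in HBSS, 12.6, 12.6 and 11.8 at 20 µM and 11.3, 9.85 and 8.99 at 100 µM (slope −0.44 ± 0.075, adjusted p = 0.0383). Ctsc, the lysosomal cathepsin C, fell with a slope of −0.16 ± 0.037 (SE).

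The largest 100 µM only difference above the rest was that of Sumo2, the ubiquitin-like modifier attached to proteins under stress, at 20.7, 37.6 and 57.4 FPKM in HBSS, 27.3, 21.0 and 29.6 at 20 µM and 61.8, 70.9 and 72.6 at 100 µM. The 100 µM libraries lie above the others, but HBSS itself spreads from 20.7 to 57.4 FPKM on this gene, which has processed copies in the genome, and its values are uncertain (slope 1.15 ± 0.29, adjusted p = 0.0488). Mt1, the cysteine-rich metallothionein that binds zinc and copper, was clearer at 67.8, 79.5 and 79.2 FPKM in HBSS, 75.1, 72.5 and 93.1 at 20 µM and 99.5, 117 and 115 at 100 µM (slope 0.55 ± 0.10, adjusted p = 0.0404). Its 20 µM replicate 3 lay between the 2 levels. Tmem37, a calcium channel gamma-like membrane protein, gave 5.49, 7.02 and 6.02 FPKM in HBSS, 6.48, 6.86 and 8.08 at 20 µM and 8.35, 10.1 and 10.3 at 100 µM (slope 0.54 ± 0.10, adjusted p = 0.0404). Uqcrh, the hinge subunit of respiratory complex III, gave 48.7, 61.2 and 59.6 FPKM in HBSS, 47.5, 49.7 and 60.9 at 20 µM and 67.1, 82.1 and 76.0 at 100 µM (slope 0.47 ± 0.11, adjusted p = 0.0462). Aurkaip1, also a protein of the small mitochondrial ribosomal subunit, gave 21.6, 22.3 and 20.9 FPKM in HBSS, 21.1, 21.1 and 21.1 at 20 µM and 26.0, 27.5 and 27.7 at 100 µM, with HBSS and 20 µM alike to within their spread and 100 µM above both (slope 0.35 ± 0.039, adjusted p = 0.0366). Rps12 of the small cytosolic ribosomal subunit gave 85.4, 96.4 and 85.1 FPKM in HBSS, 96.7, 95.02 and 98.0 at 20 µM and 117, 112 and 124 at 100 µM (slope 0.39 ± 0.056, adjusted p = 0.0366). Snord49a and Gm12166 had the shape without a called slope (adjusted p = 0.0606 and 0.0593).

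On the other side, the largest 100 µM only differences belonged to short or unclassified genes. Gm10241, a processed pseudogene, stood at 92.6, 76.9 and 34.6 FPKM in HBSS, 80.1, 103 and 92.5 at 20 µM and 23.0, 20.7 and 19.2 at 100 µM, and Mir1957a, a microRNA locus, at 7.08, 11.4 and 8.37 FPKM in HBSS, 7.40, 11.4 and 6.98 at 20 µM and 4.03, 2.56 and 0.808 at 100 µM. Snord70, a small nucleolar RNA gene, gave 12.3, 12.7 and 11.5 FPKM in HBSS, 9.54, 15.1 and 14.1 at 20 µM and 6.72, 5.18 and 3.68 at 100 µM. These 3 fell by slopes of −1.84 ± 0.29 (SE), −1.71 ± 0.33 (SE) and −1.22 ± 0.18 (SE), and Gm43980 and Mir5125 by −1.19 ± 0.22 (SE) and −0.85 ± 0.18 (SE). An mRNA library counts host transcripts over such loci and not the mature small RNA. Mir1957a and Snord70 have only 66 and 87 bases of exon, so their FPKM values rest on few reads and are uncertain. Zfp871, a zinc finger protein, was the first protein-coding gene at 17.2, 14.7 and 15.4 FPKM in HBSS, 16.4, 14.6 and 12.7 at 20 µM and 12.4, 9.06 and 7.23 at 100 µM (slope −0.70 ± 0.15, adjusted p = 0.0441). Zfp217, a transcription factor of corepressor complexes, gave 8.03, 8.87 and 9.67 FPKM in HBSS, 8.11, 8.65 and 9.04 at 20 µM and 6.43, 6.25 and 5.52 at 100 µM (slope −0.50 ± 0.071, adjusted p = 0.0366). Trim56, a ubiquitin ligase of antiviral signalling, gave 6.78, 6.28 and 6.91 FPKM in HBSS, 6.85, 6.72 and 6.29 at 20 µM and 5.33, 4.74 and 4.58 at 100 µM (slope −0.41 ± 0.058, adjusted p = 0.0366). In both, HBSS and 20 µM shared one range and the 100 µM libraries lay below it.

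The 20 µM peaks were led by small nucleolar RNA genes at low level. Gm25128, Gm26287 and Gm26202 have only 76, 81 and 65 bases of exon, so their FPKM values rest on few reads and are uncertain. Gm25128 stood at 6.76, 3.97 and 3.97 FPKM in HBSS, 12.2, 8.63 and 8.75 at 20 µM and 3.50, 2.97 and 2.81 at 100 µM, the 20 µM libraries above all others. Its departure from the line was 1.00 ± 0.17 (SE) at an unadjusted p = 0.000289, and it did not pass adjustment. Its slope did, at −0.85 ± 0.18 (SE) (adjusted p = 0.0413), since 100 µM was the lowest dose. Gm26287, Gm26202 and Gm25835 had the same shape, with departures of 0.69 ± 0.28 (SE), 0.65 ± 0.12 (SE) and 0.39 ± 0.12 (SE). Zfand2a, the arsenite-inducible zinc finger protein that serves the proteasome, gave 14.3, 12.9 and 13.3 FPKM in HBSS, 15.7, 14.9 and 15.3 at 20 µM and 14.5, 12.7 and 13.0 at 100 µM (departure 0.17 ± 0.053 (SE), unadjusted p = 0.0106). Slc7a11, the cystine and glutamate antiporter xCT that feeds glutathione synthesis, peaked narrowly at 20 µM and was lowest at 100 µM, with 7.15, 7.25 and 7.65 FPKM in HBSS, 7.74, 8.16 and 7.66 at 20 µM and 6.40, 5.69 and 5.87 at 100 µM. HBSS replicate 3 and 20 µM replicate 3 were almost equal. Its slope was called, at −0.31 ± 0.049 (SE) (adjusted p = 0.0366), and was −0.14 with the exon length trend removed. Plk3, a stress-responsive polo-like kinase, gave 8.06, 7.93 and 8.42 FPKM in HBSS, 8.62, 9.02 and 9.94 at 20 µM and 7.69, 7.37 and 8.52 at 100 µM. Egr1, an immediate early factor, lay outside the shape at 6.82, 2.31 and 2.39 FPKM in HBSS, 7.34, 7.20 and 10.1 at 20 µM and 2.38, 4.56 and 7.27 at 100 µM. Its 20 µM libraries were above all HBSS libraries, but 100 µM replicate 3 reached them.

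The 20 µM dips were led by a mitochondrial transfer RNA. mt-Tl1, the leucine tRNA gene of the mitochondrial genome, stood at 57.9, 69.8 and 68.3 FPKM in HBSS, 47.5, 48.7 and 45.7 at 20 µM and 70.9, 64.7 and 69.0 at 100 µM, with each 20 µM library below each other library. Its departure was −0.47 ± 0.066 (SE) at an unadjusted p = 6.83e-05, which did not pass over all genes. Its neighbour in the same primary transcript, mt-Rnr2, the large mitochondrial ribosomal RNA, gave 269, 263 and 295 FPKM in HBSS, 254, 241 and 249 at 20 µM and 276, 299 and 305 at 100 µM (departure −0.17 ± 0.053 (SE)). Poly(A) selection captures both poorly. Selenok, a selenoprotein of the endoplasmic reticulum, gave 21.2, 21.6 and 20.5 FPKM in HBSS, 18.6, 19.1 and 18.1 at 20 µM and 21.7, 22.3 and 21.7 at 100 µM (departure −0.18 ± 0.036 (SE), unadjusted p = 0.00069), returning at 100 µM to just above its HBSS range. Ndufab1 and Ndufs3, subunits of respiratory complex I, had departures of −0.15 ± 0.048 (SE) and −0.11 ± 0.046 (SE), and the processed pseudogenes Gm10704 and Gm38158 of −0.24 ± 0.11 (SE) and −0.23 ± 0.074 (SE).

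Among genes shifted at both doses, pseudogenes made up 72 of the 169 above HBSS. Gm7332 gave 4.01, 5.54 and 5.75 FPKM in HBSS, 8.60, 7.84 and 11.2 at 20 µM and 10.5, 12.2 and 14.1 at 100 µM (slope 0.94 ± 0.15, adjusted p = 0.0366), while Gm7206 and Gm6311 had the shape without a called slope. Mmp13, collagenase 3, gave 7.08, 6.72 and 7.39 FPKM in HBSS, 7.53, 7.76 and 9.36 at 20 µM and 9.23, 10.7 and 9.74 at 100 µM (slope 0.40 ± 0.078, adjusted p = 0.0404), and Mmp8, neutrophil collagenase, gave 5.34, 6.55 and 7.09 FPKM in HBSS, 7.69, 9.64 and 9.01 at 20 µM and 8.53, 9.70 and 8.16 at 100 µM. The 20 and 100 µM ranges of Mmp8 overlapped widely (departure 0.33 ± 0.099 (SE), unadjusted p = 0.00862). Below HBSS, Neat1, the long noncoding RNA that scaffolds nuclear paraspeckles, stood at 9.36, 11.7 and 10.7 FPKM in HBSS, 6.98, 6.91 and 6.31 at 20 µM and 6.65, 4.81 and 3.67 at 100 µM (slope −0.83 ± 0.15, adjusted p = 0.0398). Every HOCl library lay below every HBSS library, and the 20 and 100 µM ranges overlapped. Mir1898 and the noncoding Gm42047 had the same shape, at 11.8, 8.48 and 9.68 FPKM in HBSS, 7.65, 6.77 and 8.01 at 20 µM and 7.04, 4.75 and 3.21 at 100 µM and at 92.9, 84.5 and 90.1 FPKM in HBSS, 80.4, 74.0 and 63.2 at 20 µM and 72.3, 55.4 and 43.4 at 100 µM. With 83 bases of exon, Mir1898 also rests on few reads.

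Gene lists of stress, metabolism and immunity were then read along the same series. For comparison, 5678 of the 11850 genes (47.9%) had a slope above 0, and the median slope of all genes was −0.010, with medians of 0.0058 for 20 µM minus HBSS and −0.0057 for 100 µM minus HBSS. Over all genes 2.91% rose, 3.81% fell, and 7.87% and 8.99% had the 100 µM only shape above and below the rest. These shares are the comparison for each count of members below. Nothing is read from a list with 1 or a few called members, whether or not it lies near them.

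NRF2 targets and antioxidant enzymes stood higher at 100 µM with little movement at 20 µM. Of 27 NRF2 targets measured, 21 had a slope above 0 and 6 below, 6 rose and 1 fell by the test, and 9 had the 100 µM only shape. Their median was 0.032 for 20 µM minus HBSS and 0.20 for 100 µM minus HBSS, and the median slope of 0.20 became 0.065 with quantile normalization. Of 20 antioxidant enzymes, 19 had a slope above 0, 6 rose and none fell, with a median slope of 0.16. Prdx1, the peroxiredoxin that reduces peroxides through a reactive cysteine, stood at 489, 517 and 473 FPKM in HBSS, 488, 514 and 521 at 20 µM and 571, 674 and 639 at 100 µM (slope 0.36 ± 0.063, adjusted p = 0.0384). Sod1, cytosolic superoxide dismutase, gave 32.7, 36.9 and 33.3 FPKM in HBSS, 33.9, 36.2 and 38.7 at 20 µM and 39.3, 47.1 and 44.7 at 100 µM (slope 0.34 ± 0.074, adjusted p = 0.0441). Gpx4, which reduces lipid peroxides, gave 98.5, 99.5 and 91.9 FPKM in HBSS, 95.1, 99.1 and 100.1 at 20 µM and 107, 119 and 115 at 100 µM (slope 0.24 ± 0.048, adjusted p = 0.0412). In all of these the 100 µM libraries lay above the other 6. Prdx2 and Gstm1, a peroxiredoxin and a glutathione transferase, rose with slopes of 0.27 ± 0.062 (SE) and 0.33 ± 0.062 (SE), and 4 of 5 further peroxiredoxins (Prdx2 to Prdx6) had the 100 µM only shape. Catalase (Cat) lay above HBSS at both doses, at 74.8, 72.9 and 68.5 FPKM in HBSS, 75.7, 77.0 and 76.1 at 20 µM and 77.0, 80.5 and 83.6 at 100 µM, without a called slope. Hmox1, heme oxygenase 1, gave 75.9, 90.6 and 95.03 FPKM in HBSS, 77.8, 90.4 and 112 at 20 µM and 99.0, 129 and 111 at 100 µM. Its 100 µM libraries lay above HBSS while 20 µM overlapped both, and the slope was not called (adjusted p = 0.0992). Srxn1 and Txnrd1, which recycle peroxiredoxins and thioredoxin, gave slopes of 0.078 ± 0.055 (SE) and −0.035 ± 0.043 (SE), and Gclm, of glutathione synthesis, 0.11 ± 0.061 (SE), none of them called. Osgin1 had a slope of 0.34 ± 0.11 (SE) that did not pass. Slc7a11 was the single NRF2 target that fell.

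The promoter windows of the NRF2, ATF4 and CHOP, and interferon lists were searched for response elements. These lists name targets of those routes, so a share of matches above that of all genes says nothing about dose. The windows are from RefSeq on GRCm38.p6 (300 bases around a start, most of them before it), another build than the one named for the reads, and a match is a description of the letters alone. The antioxidant response element was searched as TGACNNNGC on both strands. It was found in 9 of the 23 NRF2 targets with a window (39.1%), and in 13.99% of all 27025 genes with a window. Of the members with the letters, Prdx1 and G6pdx had the 100 µM only shape, while Gclm, Txnrd1, Srxn1, Pgd, Me1, Ugdh and Abcc4 had no shape. Mt1, Gstm1, Taldo1, Tkt, Ftl1, Akr1a1 and Idh1 had the 100 µM only shape without the letters in a window. Prdx1 is shown because it rose with dose and holds a match, given in capitals. Its window is chr4:116685349-116685648 on the plus strand, and the match begins 133 bases before the start.
Prdx1: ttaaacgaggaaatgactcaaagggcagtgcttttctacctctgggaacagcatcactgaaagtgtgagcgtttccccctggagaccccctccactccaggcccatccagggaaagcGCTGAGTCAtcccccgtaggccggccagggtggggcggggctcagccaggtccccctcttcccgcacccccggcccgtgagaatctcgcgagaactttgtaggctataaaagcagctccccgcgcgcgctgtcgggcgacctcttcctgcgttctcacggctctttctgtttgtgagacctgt

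ATF4 and CHOP targets stood lower at 100 µM, and near their HBSS level at 20 µM. Of 29 measured, 28 had a slope below 0 and 1 above, 3 fell by the test and none rose, and 9 had the 100 µM only shape below the rest. Their median was 0.022 for 20 µM minus HBSS, −0.24 for 100 µM minus HBSS and −0.23 for the slope with the exon length trend removed. Ddit3, which encodes CHOP, stood at 26.5, 24.0 and 22.6 FPKM in HBSS, 26.6, 22.2 and 19.6 at 20 µM and 16.1, 14.2 and 15.7 at 100 µM. The 20 µM range lay across that of HBSS and the 100 µM libraries lay below both (slope −0.65 ± 0.099, adjusted p = 0.0366, −0.74 with the length trend removed). Slc38a2, a neutral amino acid transporter, gave 65.9, 61.3 and 65.8 FPKM in HBSS, 64.6, 64.0 and 60.2 at 20 µM and 53.8, 46.0 and 52.1 at 100 µM (slope −0.36 ± 0.060, adjusted p = 0.0382). Chac1, which degrades glutathione, gave 9.84, 14.1 and 16.2 FPKM in HBSS, 11.1, 11.8 and 10.4 at 20 µM and 8.57, 7.03 and 9.22 at 100 µM, below the others at 100 µM with a slope of −0.58 ± 0.15 (SE) that just missed (adjusted p = 0.0517). All 7 amino acid transporters in the list had slopes below 0, of which Slc7a11 and Slc38a2 were called. Atf4 itself gave 266, 214 and 224 FPKM in HBSS, 258, 258 and 237 at 20 µM and 213, 192 and 223 at 100 µM, with HBSS replicate 1 highest and the doses overlapping, and was not called (adjusted p = 0.109). Trib3, a pseudokinase that feeds back on ATF4, gave 98.5, 74.7 and 66.1 FPKM in HBSS, 92.6, 83.0 and 67.5 at 20 µM and 74.1, 52.9 and 63.7 at 100 µM, and Asns, asparagine synthetase, gave 130.3, 102 and 93.3 FPKM in HBSS, 117, 111 and 91.9 at 20 µM and 99.9, 83.9 and 90.3 at 100 µM. Both overlapped across doses, with replicate 1 highest at every dose. Gdf15, a stress cytokine, gave 5.95, 5.00 and 5.15 FPKM in HBSS, 6.64, 6.63 and 4.97 at 20 µM and 4.16, 3.29 and 4.52 at 100 µM. Atf3 showed little order, with a slope of −0.10 ± 0.075 (SE). Libraries within a dose differed on this list: its median centred level was 0.188, 0.0145 and −0.0174 in HBSS, 0.167, 0.118 and −0.0256 at 20 µM, and −0.0472, −0.317 and −0.105 at 100 µM. The 100 µM libraries lay below the rest, by the most in replicate 2. The tRNA synthetases, many of them also ATF4 targets, had 14 of 18 slopes below 0 with none called and a median of −0.084, or −0.18 with quantile normalization.

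The composite element bound by ATF4 and C/EBP factors was searched as TGATGNAA on both strands. It was found in 9 of the 27 list members with a window (33.3%) and in 4.51% of all genes with a window. Of the members with the letters, Chac1, Pck2 and Slc1a4 had the 100 µM only shape below the rest. Atf3, Trib3, Asns, Nupr1 and Pycr1 carried them and had no shape. Ddit3, Slc38a2, Sesn2, Slc7a1 and Gdf15 had the 100 µM only shape without the letters in a window. Chac1 and Slc7a11 are shown because both carry the letters and take different shapes, 100 µM only and 20 µM peak. The Chac1 window is chr2:119350992-119351291 on the plus strand, with the match 193 bases before the start, and the Slc7a11 window is chr3:50443564-50443863 on the minus strand, with matches in opposite directions beginning 66 and 47 bases before the start.
Chac1: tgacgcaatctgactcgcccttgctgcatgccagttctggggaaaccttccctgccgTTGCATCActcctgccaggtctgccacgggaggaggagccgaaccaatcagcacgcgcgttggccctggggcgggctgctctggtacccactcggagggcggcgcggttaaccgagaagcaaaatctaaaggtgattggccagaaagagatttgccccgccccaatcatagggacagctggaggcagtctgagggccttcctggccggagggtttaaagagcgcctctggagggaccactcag
Slc7a11: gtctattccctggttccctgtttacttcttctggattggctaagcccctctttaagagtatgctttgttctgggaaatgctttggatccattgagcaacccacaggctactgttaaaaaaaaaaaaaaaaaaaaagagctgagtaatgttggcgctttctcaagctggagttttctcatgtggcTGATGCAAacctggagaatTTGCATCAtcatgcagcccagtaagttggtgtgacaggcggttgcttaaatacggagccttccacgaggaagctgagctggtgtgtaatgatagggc

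Nuclear genes of oxidative phosphorylation stood higher at 100 µM almost without exception. Of 75 measured, 74 had a slope above 0 and 1 below, 9 rose and none fell by the test, and 35 had the 100 µM only shape. Their summed level was 5565, 6046 and 5653 FPKM in HBSS, 5480, 5718 and 6022 at 20 µM, and 6117, 6739 and 6765 at 100 µM. HBSS and 20 µM overlapped, and 100 µM replicate 1 lay just above the highest of them. The medians were −0.0021 for 20 µM minus HBSS and 0.18 for 100 µM minus HBSS. These are short genes, with a median exon length of 1756 bases, and the median slope of 0.20 became 0.11 with the length trend removed and 0.10 with quantile normalization. By complex, grouped by gene symbol after the values were seen, 35 of 36 complex I genes, 4 of 4 of complex II, 9 of 9 of complex III, 10 of 10 of complex IV and 15 of 15 of ATP synthase had slopes above 0, with medians from 0.16 to 0.21. Ndufb6 of complex I gave 74.5, 76.2 and 73.5 FPKM in HBSS, 74.1, 79.3 and 80.5 at 20 µM and 85.2, 88.2 and 96.3 at 100 µM (slope 0.26 ± 0.051, adjusted p = 0.0404), and Sdhb, the iron-sulphur subunit of complex II, gave 46.8, 48.6 and 45.8 FPKM in HBSS, 45.01, 48.5 and 48.1 at 20 µM and 53.2, 53.9 and 52.4 at 100 µM (slope 0.18 ± 0.040, adjusted p = 0.0441). Ndufc2 and Ndufb11 rose with slopes of 0.23 ± 0.048 (SE) and 0.25 ± 0.058 (SE). Cox7b of complex IV, at 114, 125 and 116 FPKM in HBSS, 109, 117 and 122 at 20 µM and 127, 142 and 138 at 100 µM, had the shape without the call (adjusted p = 0.0545).

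The 13 mRNAs made from mitochondrial DNA did not follow their nuclear partners. Their slopes were above 0 in 8 and below in 5, none was called and none had a shape. Their median was −0.14 for 20 µM minus HBSS and −0.056 for 100 µM minus HBSS. mt-Nd1 of complex I gave 5321, 5053 and 5425 FPKM in HBSS, 4331, 4515 and 4731 at 20 µM and 4604, 5021 and 5619 at 100 µM, and mt-Nd2 gave 3418, 3003 and 3323 FPKM in HBSS, 2795, 2716 and 2813 at 20 µM and 2638, 2875 and 3153 at 100 µM. By their means both were highest in HBSS and lowest at 20 µM. Each HBSS library lay above each 20 µM library, and 100 µM overlapped both. mt-Co1 of complex IV gave 8674, 7019 and 7660.2 FPKM in HBSS, 6970.0, 6972 and 6629.6 at 20 µM and 6373, 6469 and 7152 at 100 µM, while mt-Co3 gave 67.1, 64.4 and 56.5 FPKM in HBSS, 58.5, 73.9 and 158 at 20 µM and 114, 111 and 174 at 100 µM, with 20 µM replicate 3 at the level of 100 µM. The sign of this list's median slope, 0.018, depended on the setting, from −0.10 with the length trend removed to 0.086 without 100 µM replicate 1.

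Proteasome subunits and mitochondrial ribosomal proteins often had the 100 µM only shape. Of 33 proteasome subunits, 32 had a slope above 0, 6 rose, none fell and 16 had the 100 µM only shape, with medians of 0.0082 at 20 µM and 0.14 at 100 µM against HBSS. Their median slope of 0.15 became 0.063 with quantile normalization. The 20S core took 9 of these 16 among its 14 genes and the 19S regulatory particle 6 among 17. Psma7, a core alpha subunit, gave 91.9, 97.8 and 90.7 FPKM in HBSS, 95.4, 94.9 and 96.5 at 20 µM and 106, 112 and 111 at 100 µM (slope 0.23 ± 0.039, adjusted p = 0.0382). Pomp, the chaperone of core assembly, gave 14.7, 16.8 and 15.7 FPKM in HBSS, 14.3, 15.7 and 17.0 at 20 µM and 17.9, 20.2 and 19.7 at 100 µM (slope 0.30 ± 0.071, adjusted p = 0.046). Psmc4 and Psmb7 rose with slopes of 0.18 ± 0.044 (SE) and 0.16 ± 0.040 (SE). Nfe2l1, the factor NRF1 that drives proteasome genes, gave 127, 107 and 104 FPKM in HBSS, 122, 111 and 97.8 at 20 µM and 100.0, 79.8 and 91.7 at 100 µM, lower in value at 100 µM but not called (adjusted p = 0.0704). Of 65 mitochondrial ribosomal proteins, 59 had a slope above 0, 2 rose (Mrps14 and Mrpl11) and 19 had the 100 µM only shape, with a median slope of 0.15. Of 64 cytosolic ribosomal proteins, 58 had a slope above 0, 3 rose (Rps12, Rpl27 and Rps14) and 11 had the 100 µM only shape. Their median slope of 0.13 became 0.050 with the length trend removed and −0.0035 with quantile normalization, and many of them have near-identical copies that share reads. The 40 ribosome biogenesis factors had a median slope of 0.062, which was 0.013 with quantile normalization, with 1 gene, Noc4l, called and 2 of the 100 µM only shape.

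The series title concerns mitophagy genes, and as a group these showed no direction along the dose. Of 44 mitophagy core genes, 22 had a slope above 0 and 22 below, 3 rose and 1 fell, with a median of −0.0090. Pink1, the kinase that marks damaged mitochondria, gave 5.85, 4.35 and 4.13 FPKM in HBSS, 4.68, 4.42 and 4.13 at 20 µM and 5.81, 4.96 and 5.51 at 100 µM and overlapped across doses (slope 0.20 ± 0.10 (SE), adjusted p = 0.173). The outer membrane receptors Bnip3 and Bnip3l gave 17.6, 13.6 and 13.4 FPKM in HBSS, 15.4, 14.2 and 12.9 at 20 µM and 17.4, 14.6 and 15.7 at 100 µM and 27.3, 23.4 and 22.6 FPKM in HBSS, 24.8, 24.2 and 21.2 at 20 µM and 23.7, 23.0 and 22.8 at 100 µM, and neither was called. Another receptor did pass: Fkbp8, which binds LC3 on mitochondria, rose through 57.0, 59.2 and 56.1 FPKM in HBSS, 57.5, 58.1 and 60.4 at 20 µM and 62.6, 65.5 and 66.6 at 100 µM (slope 0.18 ± 0.039, adjusted p = 0.0441). Map1lc3b, the LC3 protein that coats autophagosomes, rose through 8.81, 8.71 and 8.15 FPKM in HBSS, 8.66, 9.33 and 8.36 at 20 µM and 9.91, 9.71 and 9.99 at 100 µM (slope 0.19 ± 0.047, adjusted p = 0.0485), and its relative Gabarap gave 93.4, 93.6 and 87.9 FPKM in HBSS, 91.3, 92.4 and 90.8 at 20 µM and 98.3, 105 and 104 at 100 µM (slope 0.17 ± 0.040, adjusted p = 0.0453, and 0.080 with the length trend removed). In each of these 3 genes HBSS and 20 µM overlapped and 100 µM stood above. Rb1cc1, the scaffold FIP200 of the ULK1 kinase complex, fell through 4.53, 4.29 and 4.21 FPKM in HBSS, 4.52, 4.24 and 3.86 at 20 µM and 3.79, 3.25 and 3.36 at 100 µM (slope −0.26 ± 0.063, adjusted p = 0.0462). Its slope was −0.084 with the length trend removed. Sqstm1, the adaptor p62, gave 211, 178 and 159 FPKM in HBSS, 205, 187 and 166 at 20 µM and 174, 154 and 171 at 100 µM and was not called. Of 38 autophagy machinery genes, 14 had a slope above 0 and 24 below, and only Wdfy3, the large adaptor ALFY for protein aggregates, was called, at 12.9, 10.8 and 11.6 FPKM in HBSS, 13.5, 11.6 and 10.6 at 20 µM and 9.94, 6.75 and 6.97 at 100 µM (slope −0.58 ± 0.13, adjusted p = 0.0445). The list's median slope of −0.065 became 0.0015 with the length trend removed. Of 43 lysosome genes, 28 had a slope above 0, 2 rose and 1 fell. Atp6v1f and Atp6v0b, subunits of the proton pump, rose with slopes of 0.17 ± 0.042 (SE) and 0.17 ± 0.041 (SE), which became 0.048 and 0.087 with the length trend removed. Ctsc fell. The list's median slope of 0.040 became −0.043 with quantile normalization.

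More interferon-stimulated genes had slopes below 0 than above, and 3 members were lower at each dose. Of 45 measured, 31 had a slope below 0 and 14 above, 9 fell and none rose. Of them 3 had the monotone downward shape and 8 the 100 µM only shape below the rest, and 1, Cxcl10, had the 100 µM only shape above. Their median was −0.066 for 20 µM minus HBSS and −0.13 for 100 µM minus HBSS. The median centred level of the list was −3.1e-05, 0.105 and 0.0653 in HBSS, −0.102, −0.0104 and 0.0794 at 20 µM, and −0.0641, −0.0336 and −0.0447 at 100 µM. The 100 µM libraries lay below HBSS, while the 20 µM libraries spread across both. Oas2, a synthetase of the 2-5A messenger that activates RNase L, gave 4.84, 5.35 and 5.598 FPKM in HBSS, 4.43, 3.96 and 4.79 at 20 µM and 3.15, 3.22 and 2.78 at 100 µM (slope −0.60 ± 0.073, adjusted p = 0.0366). Oas1g, of the same family, gave 24.4, 27.1 and 26.2 FPKM in HBSS, 21.7, 22.3 and 23.1 at 20 µM and 20.8, 17.8 and 18.1 at 100 µM (slope −0.40 ± 0.062, adjusted p = 0.0366). Ifi44, an interferon-induced antiviral gene, gave 4.86, 5.00 and 5.13 FPKM in HBSS, 3.75, 3.71 and 4.21 at 20 µM and 3.05, 3.49 and 3.49 at 100 µM (slope −0.39 ± 0.059, adjusted p = 0.0366). In each of the 3 the doses did not overlap. Oas1a reached its lower level at 20 µM and stayed there, at 41.0, 42.9 and 43.6 FPKM in HBSS, 36.1, 37.7 and 38.8 at 20 µM and 36.7, 36.8 and 37.7 at 100 µM, without a called slope. Ifi203, a DNA-sensing family member, gave 10.9, 9.71 and 9.65 FPKM in HBSS, 9.65, 9.22 and 9.30 at 20 µM and 7.81, 7.63 and 7.71 at 100 µM (slope −0.34 ± 0.048, adjusted p = 0.0366). It had the 100 µM only shape, but its HBSS and 20 µM ranges barely overlapped and its departure was −0.023 ± 0.046 (SE). Of the 8 Oas family genes measured, 6 had slopes below 0. The Oas genes are close copies and can share reads, so their values are uncertain. The direction did not extend to all interferon targets, since Ifit1 and Isg15, listed with slopes of 0.13 and 0.14, lay above 0 without a shape. Cxcl10, Ifit1 and Isg15 were chosen after their values were seen.

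The interferon-stimulated response element was searched as GAAA, any 2 bases and GAAA again on both strands. It was found in 19 of the 35 list members with a window (54.3%) and in 3.99% of all genes with a window. Members with the letters took different directions, Oas1g among the monotone downward genes and Cxcl10 above at 100 µM. Oas1g is shown because its doses did not overlap and its window holds 2 matches that share letters, beginning 18 and 12 bases before the start. The window is chr5:120887564-120887863 on the minus strand.
Oas1g: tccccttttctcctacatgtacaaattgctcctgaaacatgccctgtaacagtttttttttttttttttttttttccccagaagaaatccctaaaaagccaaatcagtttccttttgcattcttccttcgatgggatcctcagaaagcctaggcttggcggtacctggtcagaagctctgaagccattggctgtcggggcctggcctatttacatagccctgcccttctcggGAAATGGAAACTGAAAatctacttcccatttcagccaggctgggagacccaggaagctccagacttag

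**Figure D4:**
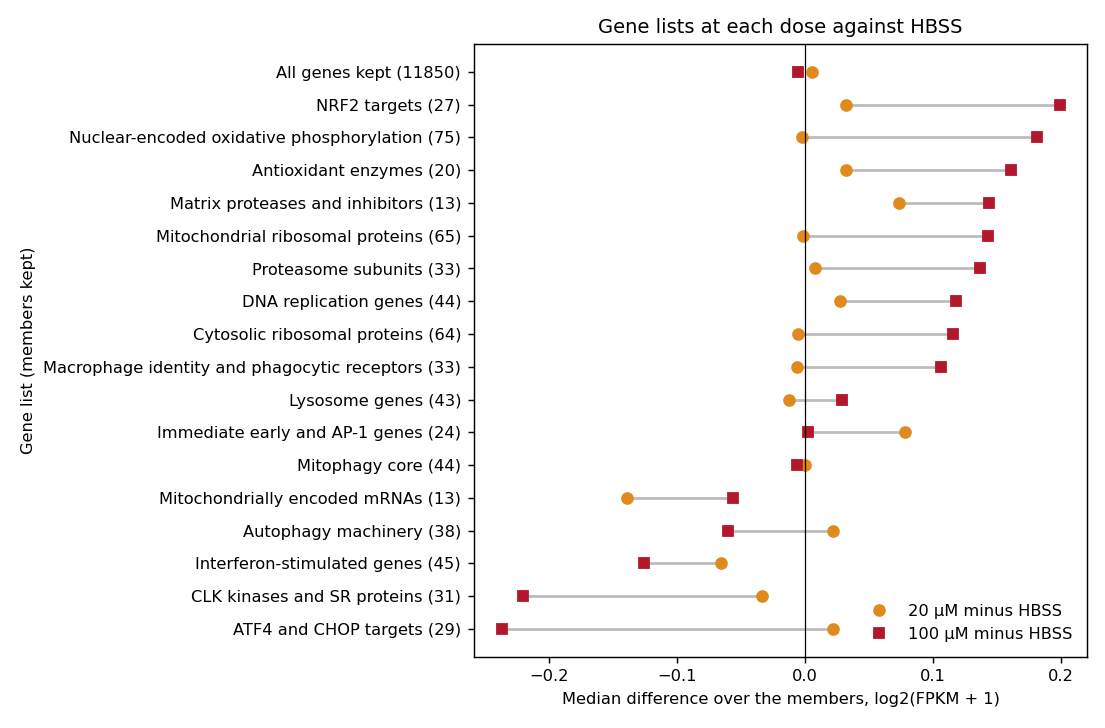
Median difference from HBSS over the measured members of each gene list (rows, with the number of members) on the log2(FPKM + 1) scale; circles are 20 µM and squares 100 µM. Most circles lie near 0, and the squares run from −0.24 for ATF4 and CHOP targets to 0.20 for NRF2 targets.

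The Clk splicing kinases and several related genes stood lower with dose, some of them at each step, but the classical SR proteins did not. Of 31 CLK kinases, SR proteins and related genes, 25 had slopes below 0 and 6 above, 6 fell and none rose, and 5 had the monotone downward shape. The median slope of −0.20 became −0.12 with the length trend removed, and the median exon length of the list was 7003 bases. Besides Clk1, Rsrp1, Prpf38b and Rbm5 described above, Clk4 was lower at both doses, at 10.2, 10.4 and 10.2 FPKM in HBSS, 9.36, 8.94 and 7.83 at 20 µM and 9.20, 8.02 and 7.43 at 100 µM (adjusted p = 0.0692). All 4 Clk genes had slopes below 0, against 5 of 10 Srsf genes. The 10 Srsf genes, the classical SR proteins, had a median slope of 0.00040 and none was called. The other called members were Srrm2, a large scaffold of nuclear speckles, and Tra2a, an SR-like splicing activator, which both fell.

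**Figure D5:**
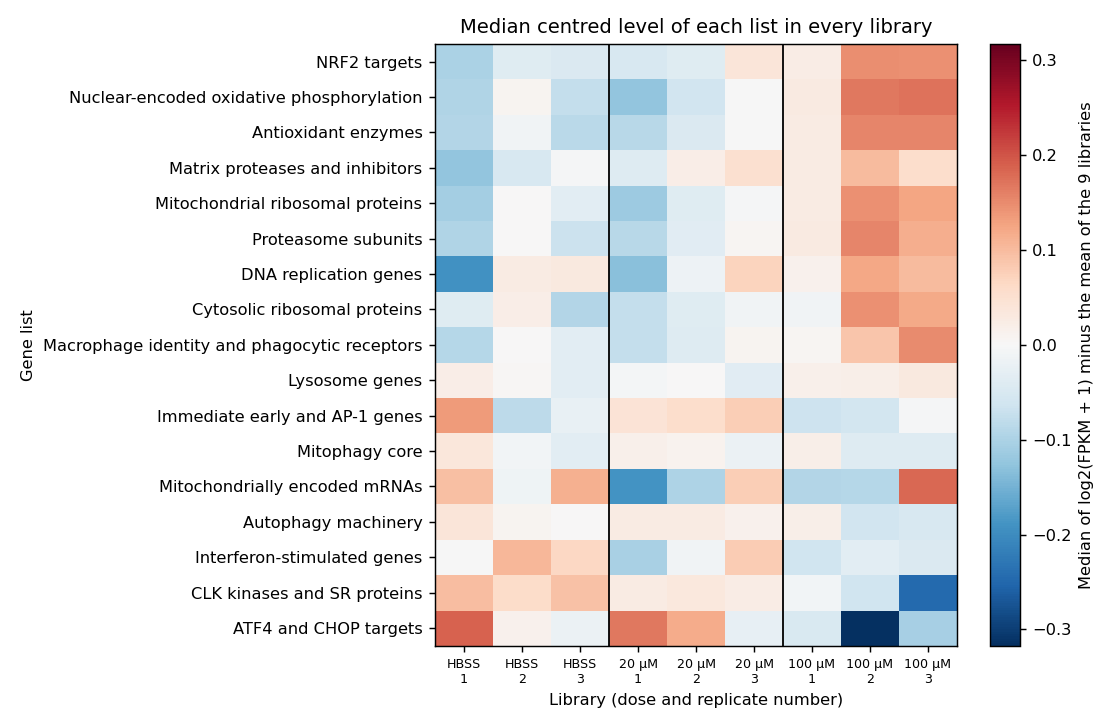
Median level of each gene list (rows) in each of the 9 libraries (columns, by dose and replicate), as log2(FPKM + 1) minus the mean of the 9 libraries, red above and blue below. ATF4 and CHOP targets run from 0.188 in HBSS replicate 1 to −0.317 in 100 µM replicate 2.

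Cell cycle and cell death genes were mixed. Of 44 DNA replication genes, 38 had slopes above 0, including all 7 Mcm helicase genes, but only Rfc2, a clamp loader subunit, was called, at 11.1, 12.3 and 12.5 FPKM in HBSS, 11.5, 12.5 and 13.1 at 20 µM and 13.7, 15.3 and 14.4 at 100 µM (slope 0.26 ± 0.060, adjusted p = 0.0453). Pcna, the replication clamp, gave 194, 228 and 228 FPKM in HBSS, 211, 234 and 242 at 20 µM and 251, 279 and 266 at 100 µM and just missed (adjusted p = 0.052). Of 38 mitosis genes, 2 fell, the large kinetochore proteins Cenpf and Cenpe (slopes −0.29 ± 0.058 (SE) and −0.25 ± 0.054 (SE), and −0.10 and −0.14 with the length trend removed), and the median was 0.0056. Of 28 p53 and growth arrest genes, 5 rose and 2 fell. Ccng1, cyclin G1, rose through 50.8, 56.4 and 56.6 FPKM in HBSS, 54.4, 58.7 and 59.1 at 20 µM and 66.3, 71.0 and 68.1 at 100 µM (slope 0.32 ± 0.053, adjusted p = 0.0366), and Bbc3, the death activator PUMA, fell through 10.6, 9.64 and 9.82 FPKM in HBSS, 10.0, 9.49 and 8.04 at 20 µM and 7.23, 6.37 and 7.64 at 100 µM (slope −0.44 ± 0.080, adjusted p = 0.0404). Among 22 BCL2 family and caspase genes, 2 rose and 3 fell. Bax, a pore former of the mitochondrial death route, gave 49.3, 50.8 and 52.8 FPKM in HBSS, 48.8, 53.5 and 52.1 at 20 µM and 57.1, 63.1 and 63.0 at 100 µM (slope 0.27 ± 0.052, adjusted p = 0.0404), Bad rose with a slope of 0.34 ± 0.081 (SE), and the caspase 8 inhibitor Cflar fell through 20.3, 16.0 and 16.5 FPKM in HBSS, 19.2, 17.3 and 14.5 at 20 µM and 14.3, 11.2 and 10.3 at 100 µM (slope −0.55 ± 0.13, adjusted p = 0.046). Of 15 pyroptosis and necroptosis genes, 2 rose: Ninj1, which ruptures the plasma membrane of dying cells, at 48.9, 54.5 and 46.8 FPKM in HBSS, 52.5, 50.8 and 49.4 at 20 µM and 61.2, 64.9 and 63.1 at 100 µM (slope 0.34 ± 0.055, adjusted p = 0.0366), and Ripk3, the necroptosis kinase, at 20.1, 21.9 and 21.7 FPKM in HBSS, 21.5, 23.2 and 23.7 at 20 µM and 24.9, 26.4 and 25.9 at 100 µM (slope 0.25 ± 0.049, adjusted p = 0.0404). Of 24 immediate early genes, Mafk and Jun fell with slopes of −0.23 ± 0.040 (SE) and −0.32 ± 0.078 (SE).

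Among macrophage and metabolic lists, the 100 µM only shape above the rest was found in 7 of 33 macrophage identity genes, 6 of 23 glycolysis, 5 of 23 cholesterol synthesis and 4 of 20 iron and heme genes. It was found in 3 of 32 chemokine and cytokine genes, 1 of 28 Toll-like receptor genes, 1 of 13 matrix proteases, 1 of 8 phagocyte oxidase genes and 0 of 9 LXR targets, against 7.87% of all genes. Of 33 macrophage identity genes, 25 had slopes above 0, 7 rose and none fell, with a median slope of 0.13 that was 0.0355 with quantile normalization. Lyz2, lysozyme, gave 2151, 2294 and 2019.6 FPKM in HBSS, 2202, 2255 and 2293 at 20 µM and 2515, 2739.7 and 2892 at 100 µM (slope 0.33 ± 0.062, adjusted p = 0.0404), the lectin receptor Clec4d gave 194, 204 and 189 FPKM in HBSS, 202, 206 and 189 at 20 µM and 229, 245 and 241 at 100 µM (slope 0.30 ± 0.048, adjusted p = 0.0366), and the Fc receptors Fcgr3 and Fcgr4 rose with slopes of 0.31 ± 0.057 (SE) and 0.34 ± 0.066 (SE), while the high-affinity receptor Fcgr1 did not (−0.032 ± 0.053 (SE)). Of 13 matrix proteases and inhibitors, 10 had slopes above 0, 3 rose and none fell, and their median was 0.073 at 20 µM and 0.14 at 100 µM against HBSS. Ccl7 and Ccl9, CC chemokines, were the 2 of 32 chemokine, cytokine and NF-kB genes that rose, Ccl7 through 70.7, 60.5 and 64.0 FPKM in HBSS, 66.6, 67.6 and 69.7 at 20 µM and 79.0, 99.9 and 87.9 at 100 µM (slope 0.45 ± 0.081, adjusted p = 0.0395). Of 28 Toll-like receptor and adaptor genes, Myd88 rose and Ly96, the MD-2 partner of TLR4, fell through 15.8, 13.7 and 13.2 FPKM in HBSS, 12.7, 11.1 and 11.7 at 20 µM and 9.79, 10.8 and 11.4 at 100 µM (slope −0.32 ± 0.077, adjusted p = 0.0462). Of 8 phagocyte oxidase genes, 6 had slopes above 0, with a median slope of 0.11 that was −0.012 with quantile normalization. Glycolysis had 17 of 23 slopes above 0, 3 rises and 1 fall: Pkm, Tpi1 and Ldha rose with slopes of 0.24 ± 0.045 (SE), 0.24 ± 0.055 (SE) and 0.21 ± 0.052 (SE), and Hk2, hexokinase 2, fell through 37.3, 36.5 and 37.5 FPKM in HBSS, 36.5, 37.6 and 39.0 at 20 µM and 33.7, 32.3 and 30.7 at 100 µM (slope −0.22 ± 0.042, adjusted p = 0.0404). Iron and heme genes had 17 of 20 slopes above 0. Blvrb, biliverdin reductase B, rose, Ireb2, the iron regulatory protein IRP2, fell, and the ferritin heavy chain Fth1 lay above HBSS at both doses, at 1943, 1986 and 1811 FPKM in HBSS, 2014, 2081 and 2063 at 20 µM and 2081, 2459 and 2421 at 100 µM (adjusted p = 0.0506). Of 23 cholesterol synthesis genes, 16 had slopes above 0, and Mvk and Pmvk, kinases of the mevalonate route, rose. Chaperones of the endoplasmic reticulum (21 genes, median slope 0.13, and 0.028 with quantile normalization), heat shock chaperones (20 genes, 0.11, and −0.0077 with quantile normalization) and LXR targets (9 genes, −0.083) had no called member.

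The shapes differed in gene length as well as in content. The median exon length was 2122.5 bases in the 345 genes that rose and 6841.5 in the 452 that fell, against 3838 over all genes. By shape it was 2636 bases in monotone upward and 5889 in monotone downward genes, 2608.5 and 6748 in 100 µM only genes above and below, 5752 in peaks, 2428 in dips, and 1420 and 4289 in genes above and below HBSS at both doses. Protein-coding genes made up 88.7% of the monotone upward and 94.6% of the 100 µM only genes above the rest, but 53.8% of those above HBSS at both doses, against 82.7% of all genes. With each library's length trend removed, the slopes of the called genes were a median of 0.757 of their size. Monotone downward genes then numbered 61, 100 µM only genes 827 above and 734 below the rest, 20 µM peaks 141, and genes above and below HBSS at both doses 231 and 137. Several called slopes described above shrank by over 1.5 times. Among those that rose, the slope became 0.13 in Ndufb6, 0.11 in Ndufb11, 0.096 in Ndufc2, 0.11 in Sdhb, 0.11 in Psmc4 and 0.14 in Gpx4. It became 0.17 in Bax, 0.22 in Lyz2, 0.22 in Fcgr4 and 0.20 in Clec4d. Among those that fell it became −0.12 in Rbm5 and −0.29 in Dido1.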

How the data were processed

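Messenger RNA from J774A.1 cells was measured in 12 libraries, of which the 9 of the dose series were used. The authors deposited FPKM per gene ID. HISAT2, featureCounts and the build GRCm39 are named in the submitters' processing notes, with versions not given in the sources used here. Those notes and labels name 2 instruments without saying which library ran on which. Low FPKM values were whole multiples of the worth of 1 read (98.26% of values under 1 FPKM within 0.01), which gave read totals of 17736642 to 21408710 over the 9 libraries and the reads for a count-based alternative.

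Genes with at least 1 FPKM in at least 3 of the 9 libraries were tested on log2(FPKM + 1), a scale that understates changes of low genes. limma 3.58.1 in R 4.3.3 was fitted to group means with a mean-variance trend, with contrasts for the slope on dose in µM, the departure of 20 µM from the line and any difference. P-values were adjusted by Benjamini-Hochberg over all genes tested, and a call needs an adjusted p under 0.05. The procedure was tested on simulated data. Shapes need complete separation of libraries and carry no test. Named genes had the largest differences within a shape at a mean of at least 5 FPKM, the smallest slope p, or the largest slope or departure statistics within a list, or belonged to a panel of 25 genes. The genes, lists and alternatives were chosen with earlier results of these data known. Promoter windows came from RefSeq on GRCm38.p6, for letters only. Alternatives changed the pseudocount, filter, scaling, dose scale, variance model, block, libraries and exon length trend. Results on a few list members are not reported here.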

Additional observations from a re-analysis of the deposited data

How the results depend on the processing

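The number of genes called for a slope, 797, was 13 with no filter, 1265 with a mean of at least 5 FPKM, 409 with quantile normalization, 29 on dose ranks, 89 on log2(dose + 10), 177 with no mean-variance trend, 4776 with library weights, 0 with all 12 libraries in the limma fit, 2059 with limma-voom on recovered reads, 1 with the exon length trend removed, and 0 to 3297 on leaving out 1 library in turn. Genes called for a departure numbered 10 with no filter and 0 to 2 on leaving out 1 library. Genes called for any difference numbered 1 with a pseudocount of 0.1, 14 with no filter, 3192 with library weights and 0 to 1272 on leaving out 1 library. Where no value above shows the cause of such a shift, the cause was not tested. With the replicate number as a block, 3776 genes were called for a slope, 1963 for any difference and 0 for a departure. The numbers were not taken to pair the libraries, since the labels do not say that they do and only 5 of 9 same-numbered pairs correlated over 0.1, in a range from −0.06 to 0.42. The replicate 1 pairs gave 0.28, 0.36 and 0.39. Other pairs ran from −0.41 to 0.29, and 3 of 9 libraries correlated best with their own number in both other groups, so shared variation by number is a hint from the data.

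With no filter there were 272 peaks, 123 dips, and 270 and 274 genes above and below HBSS at both doses. With a mean of at least 5 FPKM there were 43 monotone downward, 618 100 µM only genes below the rest, 61 peaks, and 95 and 52 genes above and below HBSS at both doses. Quantile normalization gave 54 peaks and 128 dips, and protein-coding genes alone, an alternative chosen after seeing the data, gave 91 genes above HBSS at both doses. Leaving out 1 library in turn, which eases complete separation, gave 66 to 197 monotone upward, 92 to 203 monotone downward, 828 to 2135 and 991 to 2981 100 µM only genes above and below, 131 to 466 peaks, 83 to 283 dips, and 147 to 475 and 95 to 391 genes above and below HBSS at both doses.

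Of 75 named genes refitted under 24 or 25 alternatives each, 5 changed the sign of their slope, none of them called. Gm25835 was 0.019 on dose ranks, Srxn1 −9.05e-05 with quantile normalization, Txnrd1 0.042 with the length trend removed and Bnip3l 0.0013 without HBSS replicate 1, in a range from −0.092 to 0.0013 on leaving out 1 library. Gm38158 was −0.069 on dose ranks, −0.057 on log2(dose + 10), −0.019 with library weights, −0.083 with the length trend removed, −0.013 and −0.014 without HBSS replicates 1 and 2, −0.0060 without 20 µM replicate 2 and −0.047 without 100 µM replicate 1, with a highest value of 0.067 without HBSS replicate 3. The median slope of 13 of 33 lists changed sign in some alternative. Depth limits genes with few reads most, among them short genes of low FPKM.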
